A study of Homo sapiens with 12 samples.

Results

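The 38 genes described here encode the machinery of macroautophagy, and they were selected by gene symbol from the 58735 genes of the count table. Their RNA was measured in 12 samples of HK-2 cells, an established line of human renal proximal tubular epithelium, grown in DMEM/F12 with serum and antibiotics. There were 3 samples in each of 4 groups. Control cells received H2O, and the other groups received iohexol (a contrast medium) at 75 mg I/mL, cisplatin (a platinum chemotherapeutic) at 5 μM or vancomycin (a glycopeptide antibiotic) at 4 mM, each for 48 h. The labels do not give the time of the control cells or say whether the replicates were separate cultures, so p-values measure the spread between these samples, which may be technical. In bulk RNA of this kind, fewer cells of a type and less RNA per cell cannot be told apart. The question of each comparison was how a nephrotoxic drug altered the transcripts of the tubular cell.

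Autophagy is the route by which a cell encloses part of its cytoplasm in a double membrane, the autophagosome, and delivers it to the lysosome for breakdown. The ULK1 kinase complex starts the process, a PI3-kinase complex built on PIK3C3 marks the membrane with PI3P, and WIPI, ATG2 and ATG9A proteins bring lipid to it. Conjugation enzymes then attach ATG8 proteins (the LC3 and GABARAP families) to the membrane, where they bind cargo receptors such as SQSTM1 (p62), and STX17 takes part in fusion with the lysosome. In the proximal tubule, basal autophagy is known to maintain the epithelium and to be engaged during toxic injury. SQSTM1 and the lipidated LC3 proteins are themselves degraded by the process, and the values here are transcript levels only.

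Total counts ranged from 14057282 to 18177109 per sample. Levels are given as CPM, the counts of a gene relative to the library total in units of 1e+06 counts after scaling by TMM factors, and differences as log2 fold changes ± standard error from edgeR's quasi-likelihood test of each drug against the same 3 controls, with p-values adjusted by the Benjamini-Hochberg method over all genes tested. A gene was called changed at an adjusted p under 0.05. In a chi-square comparison of counts, control 1 and iohexol 3 stood apart from the other replicates of their groups (7.30 and 9.75 per degree of freedom for control 1 against the other controls and 15.5 and 14.6 for iohexol 3, against 3.07 and 3.56 between the remaining pairs). The counts of members called with iohexol, and some member values, are given also without them. Vancomycin 2 stood at 11.9 and 8.77 against the other vancomycin samples, which stood at 5.78 against each other. The cisplatin pairs stood at 2.28 to 2.56. Of 14 proximal tubule markers, 3 to 5 reached 1 CPM in a group, PAX8 and GGT1 among them, while SLC5A12 and SLC22A6 had 0 counts in every sample and LRP2 had at most 3. These markers summed to between 490 and 619 CPM in controls, 647 and 859 with iohexol, 297 and 317 with cisplatin and 726 and 817 with vancomycin. Of 6 epithelial markers, 5 reached 1 CPM in every group, and they summed to between 872 and 978 CPM in controls, 707 and 863 with iohexol, 1371 and 1426 with cisplatin and 1290 and 1417 with vancomycin. The 5 fibroblast markers summed to between 82.3 and 104 CPM in controls, 81.3 and 94.2 with iohexol, 57.8 and 59.3 with cisplatin and 198 and 235 with vancomycin. Of these 5, 2 reached 1 CPM in controls and with iohexol, and 3 with cisplatin and vancomycin. PDGFRA, which did not follow the sum, had 0 counts in every control and vancomycin sample. These sums moved with the groups, and their part in the results below was not tested. The marker lists of endothelium, leukocytes and podocytes each summed to at most 5.76 CPM in any sample.

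Of the 38 genes, 37 passed the filter on low counts in every comparison, and MAP1LC3A did not. Promoters of 5 of the 6 members that rose past 2-fold with vancomycin are shown first (GABARAP, with few counts, is left out), each as 250 bases before and 50 bases after an annotated start (RefSeq, GRCh38.p14), so that the sequence at that start stands beside the gene's values. An annotated start can lie inside the gene span given below, as it does for SQSTM1, MAP1LC3B and ATG101. SQSTM1 has 3 such windows, and the one farthest downstream is shown. The windows are SQSTM1 at chr5:179820655-179820954 (plus strand), GABARAPL1 at chr12:10212627-10212926 (plus strand), MAP1LC3B at chr16:87392086-87392385 (plus strand), ATG101 at chr12:52069728-52070027 (plus strand) and WIPI1 at chr17:68457447-68457746 (minus strand). Capitals mark a match to TGACNNNGC, the core of the antioxidant response element.
SQSTM1: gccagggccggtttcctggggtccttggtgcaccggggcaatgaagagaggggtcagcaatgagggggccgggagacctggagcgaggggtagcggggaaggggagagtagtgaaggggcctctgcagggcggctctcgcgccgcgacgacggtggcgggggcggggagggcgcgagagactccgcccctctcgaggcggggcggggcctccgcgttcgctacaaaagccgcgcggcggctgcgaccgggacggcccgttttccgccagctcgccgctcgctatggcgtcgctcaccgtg
GABARAPL1: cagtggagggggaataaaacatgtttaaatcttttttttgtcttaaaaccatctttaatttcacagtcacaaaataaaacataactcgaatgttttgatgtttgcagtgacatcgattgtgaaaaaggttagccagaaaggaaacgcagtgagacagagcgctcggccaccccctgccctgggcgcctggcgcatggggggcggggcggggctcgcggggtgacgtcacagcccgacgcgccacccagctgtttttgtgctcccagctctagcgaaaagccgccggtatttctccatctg
MAP1LC3B: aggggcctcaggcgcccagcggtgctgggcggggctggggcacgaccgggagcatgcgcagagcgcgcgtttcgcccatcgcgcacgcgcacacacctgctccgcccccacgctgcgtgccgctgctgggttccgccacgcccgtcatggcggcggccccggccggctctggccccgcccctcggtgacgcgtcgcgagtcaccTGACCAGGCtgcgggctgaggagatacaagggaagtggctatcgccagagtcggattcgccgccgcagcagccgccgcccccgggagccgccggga
ATG101: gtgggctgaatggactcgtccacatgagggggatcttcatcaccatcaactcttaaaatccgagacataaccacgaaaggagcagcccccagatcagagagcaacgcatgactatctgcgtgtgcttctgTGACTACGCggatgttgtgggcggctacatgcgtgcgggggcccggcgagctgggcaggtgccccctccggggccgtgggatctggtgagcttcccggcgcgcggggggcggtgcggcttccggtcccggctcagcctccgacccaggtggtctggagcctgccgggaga
WIPI1: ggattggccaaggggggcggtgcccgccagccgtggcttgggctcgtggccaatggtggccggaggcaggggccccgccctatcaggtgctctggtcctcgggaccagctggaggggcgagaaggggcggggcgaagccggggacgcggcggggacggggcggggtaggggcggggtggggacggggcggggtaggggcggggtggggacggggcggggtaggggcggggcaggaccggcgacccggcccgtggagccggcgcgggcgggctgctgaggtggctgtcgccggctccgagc

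A window was found for 33 of the 38 genes (41 windows in all). TGACNNNGC, searched on both strands, occurred in 3 of these 41 windows, those of MAP1LC3B (46 bases before the start), ATG101 (120 bases before) and CALCOCO2 (129 bases before), which is 7.32% of them against 13.3% of all 35116 promoter windows. CACGTG, the E-box read by TFEB and its relatives, occurred in the windows of ATG14 and ATG3 (4.88%, against 7.26% of all windows). TGANTCA (the AP-1 site, which can overlap TGACNNNGC) and TTGCATCA (an ATF4 composite site) occurred in 0 of the 41 windows, against 7.71% and 0.866% of all windows. These are matches of letters in short windows.

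The calls over all members stood beside those over all genes as follows. The members were chosen with earlier results of these data known, so these shares describe the list and test nothing about it. With iohexol, 5 of 37 members were higher than control and 1 was lower, against 11.2% and 9.77% of all genes tested, and 0 passed 2-fold (5.28% of all genes). With cisplatin, 16 were higher and 12 lower, against 29.2% and 30.6% of all genes, and 2 passed 2-fold (16.3% of all genes). With vancomycin, 15 were higher and 7 lower, against 29% and 28.8% of all genes, and 7 passed 2-fold, 18.9% of the members and near the 18.5% of all genes. The share of members higher was thus 13.5% with iohexol, near its background, and 43.2% and 40.5% with cisplatin and vancomycin, above theirs. The vancomycin share came closer to its background without control 2 (29.7% of members against 26% of all genes) and with library size only (29.7% against 25.5%), while the lowest cisplatin share, without cisplatin 2, was 37.8% against 25.1%. The share lower was 2.7%, 32.4% and 18.9% in the same order. The median log2 fold change of the members was 0.05, 0.14 and 0.09 with iohexol, cisplatin and vancomycin, beside 0.01, 0.01 and -0.01 over all genes tested. Without control 1 the iohexol calls were 4 higher and 0 lower, without iohexol 3 they were 7 and 2, and without both libraries 9 and 2. Of all genes, 8.53% were higher and 7.84% lower without control 1, 14.8% and 13.5% without iohexol 3, and 16.4% and 18.2% without both. Scaled by library size alone, the split was 8 higher and 0 lower with iohexol, 24 and 7 with cisplatin and 11 and 8 with vancomycin, a scaling that moved the median of all genes to 0.23 in the cisplatin comparison. Of all genes, this scaling called 14.3% higher and 6.89% lower with iohexol, 43.6% and 20.4% with cisplatin and 25.5% and 33% with vancomycin.

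**Figure D1:**
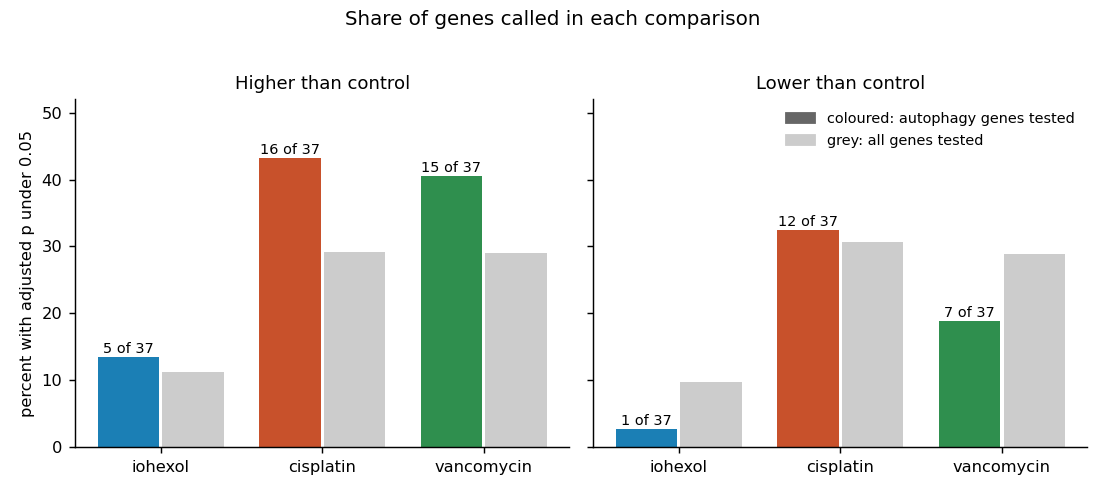
Percent of genes tested that were called higher (left) or lower (right) than control at an adjusted p under 0.05, for each drug; coloured bars are the 37 autophagy genes tested and grey bars all genes tested. The coloured bars for higher genes reach 43.2% with cisplatin and 40.5% with vancomycin, above the grey bars at 29.2% and 29%, and with iohexol the bars stand at 13.5% and 11.2%. Without control 2 the vancomycin pair would stand at 29.7% and 26%.

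Across the 3 comparisons, which share their 3 control samples, each gene's calls stood side by side as follows. MAP1LC3B, ATG2A and ATG4A were higher with all 3 drugs and PIK3C3 was lower with all 3. ULK1, ATG13, ATG101, ATG12, GABARAPL1, GABARAPL2 and CALCOCO2 were higher with cisplatin and vancomycin, and PIK3R4, ATG4C and STX17 were lower with both. SQSTM1 and OPTN were higher with iohexol and vancomycin and lower with cisplatin, WIPI1 and UVRAG lower with cisplatin and higher with vancomycin, and NBR1 higher with cisplatin and lower with vancomycin. There were 6 genes with no call in any comparison (RB1CC1, ATG14, ATG9A, ATG2B, WIPI2 and ATG4B). The shares of all genes with the same patterns were not computed. Calls of 3 members with iohexol, 3 with cisplatin and 9 with vancomycin were lost when some single library was left out, as given below. Among them were MAP1LC3B and PIK3C3 with iohexol and ATG2A and ATG4A with vancomycin. The plot of log2 fold changes by role shows each member with each drug.

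**Figure D2:**
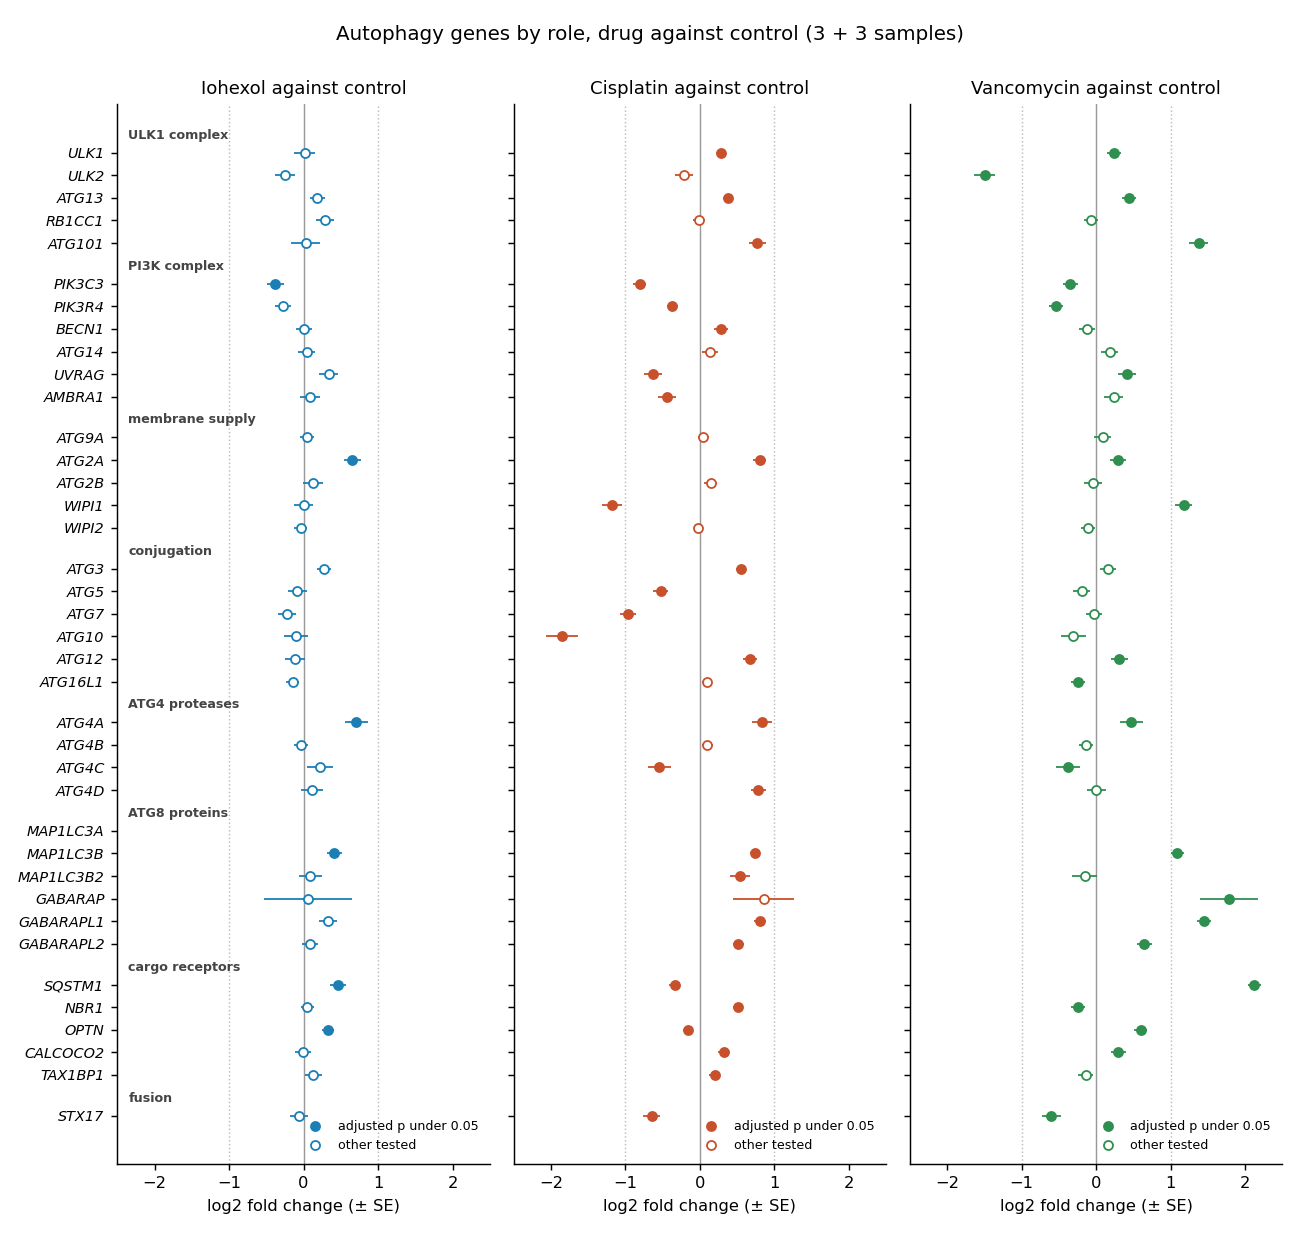
Log2 fold change ± standard error of each autophagy gene against control (x axis, dotted lines at 2-fold), grouped by role on the y axis, with a panel for each drug; filled points have an adjusted p under 0.05. The vancomycin panel has its points farthest right at SQSTM1 (2.12) and GABARAP (1.78), the cisplatin panel its farthest left at ATG10 (-1.85), and every iohexol point lies within 2-fold. MAP1LC3A was not tested and has no point.

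In untreated cells the members spanned a wide range of levels per kilobase of exon. SQSTM1 was first at 30.4 ± 3.35 CPM per kb (SD, n = 3), followed by OPTN at 21.8 ± 0.565, MAP1LC3B at 19.9 ± 1.35 and GABARAPL1 at 19.7 ± 2.24. MAP1LC3B and GABARAPL1 differed by less than their spread, as did the next genes, PIK3R4 (15.7 ± 1.08) and RB1CC1 (15.6 ± 1.8). The low end held UVRAG at 2.63 ± 0.257 CPM per kb, ATG2B at 2.23 ± 0.205, ULK2 at 1.88 ± 0.142 and ATG10 at 1.43 ± 0.123, all above GABARAP at 0.364 ± 0.209 and MAP1LC3A at 0.0367 ± 0.0373. The GABARAP level is uncertain, for reasons given below. With vancomycin SQSTM1 reached 136 ± 2.85 CPM per kb, and the next member, GABARAPL1, stood at 55.3 ± 2.99.

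Among the cargo receptors, SQSTM1 showed the largest rise of any member. It lies on the plus strand at chr5:179806398-179838078 (GRCh38) and links ubiquitinated cargo to LC3. SQSTM1 stood at 203, 248 and 247 CPM in controls 1 to 3, at 333, 338 and 280 with iohexol, at 183, 187 and 182 with cisplatin and at 1024, 1067 and 1041 with vancomycin. Every vancomycin sample was above every other sample, the iohexol samples were all above the controls, and the cisplatin samples were all below them. The log2 fold change was 2.12 ± 0.09 with vancomycin (4.36-fold, adjusted p = 3.34e-15), 0.47 ± 0.11 with iohexol (adjusted p = 0.00903) and -0.34 ± 0.07 with cisplatin (adjusted p = 0.00048). Between drugs, SQSTM1 was 5.67-fold higher with vancomycin than with cisplatin (adjusted p = 1.05e-14) and 3.29-fold higher than with iohexol (adjusted p = 2.59e-12). The lower call with cisplatin was lost when libraries were scaled by total count alone (log2 fold change -0.12, adjusted p = 0.145). Of its exon bases, 22.0% overlap genes on the opposite strand, MGAT4B and MRNIP, and the strand setting of the counting is not given in the sources used here, so reads of the overlap cannot be told apart. MGAT4B had 5681 to 6153 counts with vancomycin, where SQSTM1 had 15806 to 16901, and its log2 fold changes were 0.39, -0.43 and 0.64 with iohexol, cisplatin and vancomycin.

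OPTN, the receptor used for damaged mitochondria and bacteria, stood at 110, 115 and 110 CPM in controls, at 145, 138 and 133 with iohexol, at 101, 97.1 and 103 with cisplatin and at 168, 186 and 171 with vancomycin. The groups followed the same order as those of SQSTM1 and did not overlap, with a log2 fold change of 0.60 ± 0.09 with vancomycin (adjusted p = 2.12e-06), 0.33 ± 0.08 with iohexol (adjusted p = 0.0166) and -0.16 ± 0.06 with cisplatin (adjusted p = 0.0338). The last of these turned to 0.06 when libraries were scaled by total count alone (adjusted p = 0.429), and was lost without control 2 or any 1 cisplatin sample (adjusted p 0.074 to 0.158). The call with iohexol was lost without any 1 control, iohexol 1 or iohexol 2 (adjusted p 0.0531 to 0.0867). NBR1, a receptor related to SQSTM1, moved in other directions, at 0.51 ± 0.07 with cisplatin (adjusted p = 4.08e-06) and -0.25 ± 0.09 with vancomycin (adjusted p = 0.0251, lost without control 2, control 3 or vancomycin 3, adjusted p 0.0609 to 0.0992). CALCOCO2 (NDP52, a receptor for bacteria) had log2 fold changes of 0.32 ± 0.08 with cisplatin (adjusted p = 0.00301) and 0.30 ± 0.10 with vancomycin (adjusted p = 0.0166, lost without control 2 or control 3, adjusted p 0.0607 to 0.129). TAX1BP1, a receptor for ubiquitinated aggregates, was called with cisplatin alone (0.20 ± 0.08, adjusted p = 0.0371), and that call was lost without control 2, control 3 or any 1 cisplatin sample (adjusted p 0.0671 to 0.189).

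The ATG8 genes encode the ubiquitin-like proteins that coat the autophagosome. None of the 5 tested was called lower with any drug (of all genes, 9.77%, 30.6% and 28.8% were lower with iohexol, cisplatin and vancomycin). With cisplatin 4 were higher (29.2% of all genes), with vancomycin 4 (29%) and with iohexol 1 (11.2%). GABARAPL1 (chr12:10212458-10223130, plus strand) stood at 69.8, 86.5 and 84.6 CPM in controls, at 108, 108 and 82.9 with iohexol, at 137, 135 and 149 with cisplatin and at 212, 232 and 233 with vancomycin. Cisplatin samples were all above the controls, vancomycin samples were all above the cisplatin samples, and iohexol 3 lay within the controls. Its log2 fold change was 1.45 ± 0.09 with vancomycin (2.73-fold, adjusted p = 5.25e-12) and 0.80 ± 0.08 with cisplatin (adjusted p = 1.06e-07). With iohexol it was 0.33 ± 0.12 (adjusted p = 0.0816), and 0.45 without iohexol 3 (adjusted p = 0.00122).

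MAP1LC3B encodes the LC3 protein most used as a marker of autophagosomes (chr16:87383995-87404779, plus strand). It stood at 112, 108 and 97.7 CPM in controls, at 139, 124 and 153 with iohexol, at 179, 179 and 173 with cisplatin and at 220, 246 and 229 with vancomycin. The 4 groups did not overlap. The log2 fold change was 1.09 ± 0.09 with vancomycin (2.13-fold, adjusted p = 2.81e-10), 0.75 ± 0.07 with cisplatin (adjusted p = 3.39e-08) and 0.41 ± 0.10 with iohexol (adjusted p = 0.0123, lost without control 2 or control 3, adjusted p 0.0667 to 0.0833). In the fit of all 12 samples, vancomycin exceeded cisplatin by 0.38 ± 0.08 (adjusted p = 0.000461) and iohexol by 0.74 ± 0.08 (adjusted p = 3.27e-07).

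GABARAPL2, a further GABARAP-type protein, stood at 44.8, 41.6 and 42.0 CPM in controls, at 46.6, 40.0 and 48.1 with iohexol, at 60.7, 62.5 and 60.2 with cisplatin and at 67.2, 71.6 and 68.2 with vancomycin. Cisplatin and vancomycin samples lay above all controls, and iohexol samples overlapped them. The log2 fold change was 0.65 ± 0.10 with vancomycin (adjusted p = 4.13e-06), 0.51 ± 0.07 with cisplatin (adjusted p = 1.23e-05) and 0.09 ± 0.10 with iohexol (adjusted p = 0.61). The difference between vancomycin and cisplatin was 0.17 ± 0.09 (adjusted p = 0.0808).

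MAP1LC3B2, a close copy of MAP1LC3B, stood at 6.89, 7.40 and 7.89 CPM in controls, at 8.36, 8.19 and 6.82 with iohexol, at 11.5, 10.0 and 10.7 with cisplatin and at 7.07, 6.35 and 7.08 with vancomycin. It was higher in every cisplatin sample (0.54 ± 0.13, adjusted p = 0.00218), and its vancomycin samples overlapped the controls (-0.16 ± 0.17, adjusted p = 0.449). Because 18.2% of its 31-base sequences also occur in MAP1LC3B, its count is uncertain. MAP1LC3A had 0, 1 and 2 counts in controls, 4, 0 and 1 with iohexol, 2, 2 and 0 with cisplatin and 2, 0 and 1 with vancomycin, at or near the floor of 3 counts in each sample, so a difference was not detectable at this depth.

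GABARAP itself had few counts, 4, 16 and 18 in controls, 12, 23 and 4 with iohexol, 27, 18 and 31 with cisplatin and 36, 38 and 67 with vancomycin. In CPM these are 0.290, 1.00 and 1.18 in controls, 0.829, 1.47 and 0.267 with iohexol, 1.64, 1.11 and 1.83 with cisplatin and 2.25, 2.57 and 4.13 with vancomycin. The vancomycin samples were all above the controls (1.78 ± 0.39, adjusted p = 0.000444), and the cisplatin samples overlapped them (0.86 ± 0.41, adjusted p = 0.0813). The low counts stand beside the annotation, in which 55.7% of GABARAP exon bases overlap other genes and 30.5% overlap a gene on the same strand, AC120057.2, which had at most 1 count. The other overlapping gene, AC120057.3 on the opposite strand, had 0 to 5 counts in controls and 13 to 16 with vancomycin (2.95, adjusted p = 0.00121), the direction of GABARAP in that comparison, and the part of shared reads was not tested. The GABARAP level and its vancomycin call are therefore uncertain.

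Summed over the family and per kilobase of exon, ATG8 transcripts stood at 58.2 ± 1.51 CPM per kb in controls (SD, n = 3), 70.2 ± 2.61 with iohexol, 94.7 ± 1.08 with cisplatin and 126.8 ± 5.71 with vancomycin. No sample of a group overlapped another group, with controls from 56.9 to 59.9, iohexol from 68.4 to 73.2, cisplatin from 93.7 to 95.9 and vancomycin from 120.4 to 131.5 CPM per kb. The make-up of the sum differed as well. GABARAPL1 held 33.7% ± 3.19 of it in controls, 34.7% ± 4.82 with iohexol, 36.3% ± 1.56 with cisplatin and 43.6% ± 0.751 with vancomycin, where every sample was above every sample of the other groups. MAP1LC3B held 34.2% ± 2.61 in controls and 34.4% ± 0.849 with vancomycin, while GABARAPL2 stood at 24.3% ± 1.57 in controls and 17.9% ± 0.442 with vancomycin. GABARAP, whose level is uncertain, held 0.622% ± 0.353 in controls and 1.03% ± 0.332 with vancomycin. The sum and its shares are therefore those of the reads counted. The plot of the family by sample shows these parts.

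**Figure D3:**
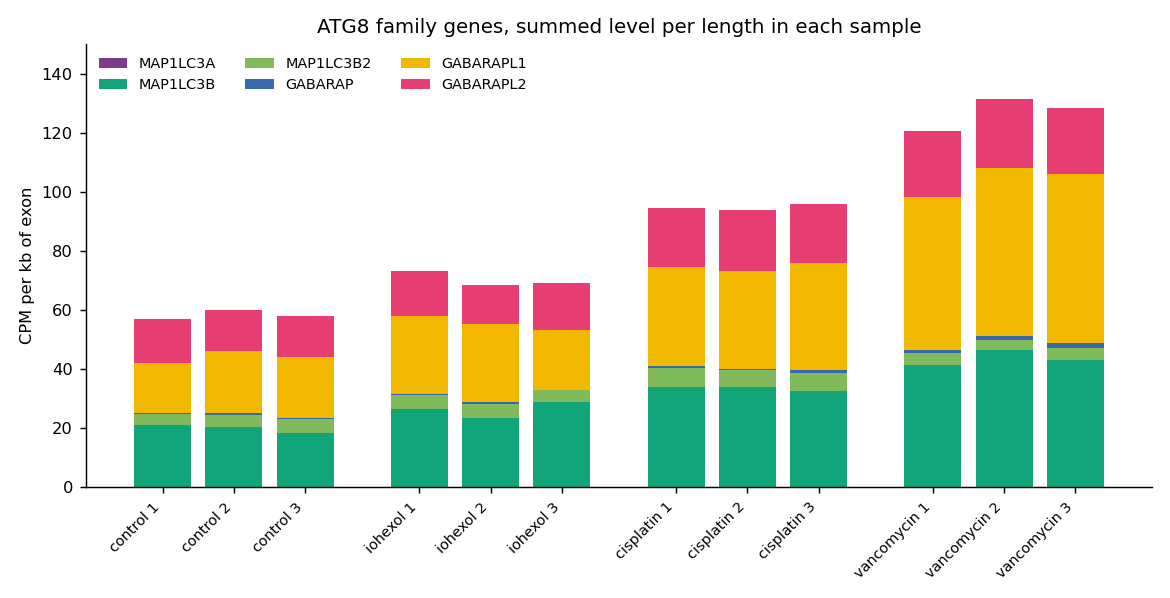
Level of the 6 ATG8 genes in CPM per kilobase of exon (y axis), stacked in each of the 12 samples (x axis). The stack rises from 56.9 to 59.9 in controls to 120.4 to 131.5 with vancomycin, and the GABARAPL1 part grows from 33.7% to 43.6% of it; MAP1LC3A is too low to be visible.

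In the ULK1 complex, ATG101 rose and ULK2 fell with vancomycin. ATG101, the subunit that stabilizes ATG13 (chr12:52069246-52077494, plus strand), stood at 17.0, 21.1 and 24.9 CPM in controls, at 25.5, 23.0 and 15 with iohexol, at 34.4, 35.2 and 38.1 with cisplatin and at 47.9, 62.1 and 59.1 with vancomycin. Iohexol samples straddled the controls, and the cisplatin and vancomycin samples were all above them, with log2 fold changes of 0.77 ± 0.11 (adjusted p = 1.67e-05) and 1.38 ± 0.13 (2.60-fold, adjusted p = 2.74e-09). ULK2, a kinase paralogous to ULK1 (chr17:19770829-19867936, minus strand), stood at 19.4, 16.9 and 19.3 CPM in controls, at 16.9, 13.8 and 15.6 with iohexol, at 13.5, 17.0 and 17.5 with cisplatin and at 6.32, 6.41 and 7.51 with vancomycin. Every vancomycin sample was below all others, and the log2 fold change was -1.50 ± 0.14 (2.82-fold lower, adjusted p = 4.72e-09). With cisplatin it was -0.21 ± 0.12 (adjusted p = 0.135) and with iohexol -0.25 ± 0.13 (adjusted p = 0.205). ULK1, the main kinase, had log2 fold changes of 0.29 ± 0.07 with cisplatin (adjusted p = 0.0023) and 0.24 ± 0.09 with vancomycin (adjusted p = 0.0304, lost without control 1, control 2 or vancomycin 3, adjusted p 0.0923 to 0.144). ATG13, the adaptor of the complex, rose by 0.38 ± 0.07 with cisplatin (adjusted p = 0.00014) and 0.44 ± 0.09 with vancomycin (adjusted p = 0.000278). RB1CC1 (FIP200, its scaffold) was not called, with log2 fold changes of 0.29, -0.01 and -0.07 with iohexol, cisplatin and vancomycin, and the cisplatin value became 0.21 when scaled by total count alone. Direct contrasts placed ULK2 at 2.37-fold lower with vancomycin than with cisplatin (adjusted p = 1.75e-07) and 2.28-fold lower than with iohexol (adjusted p = 5.6e-07).

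**Figure D4:**
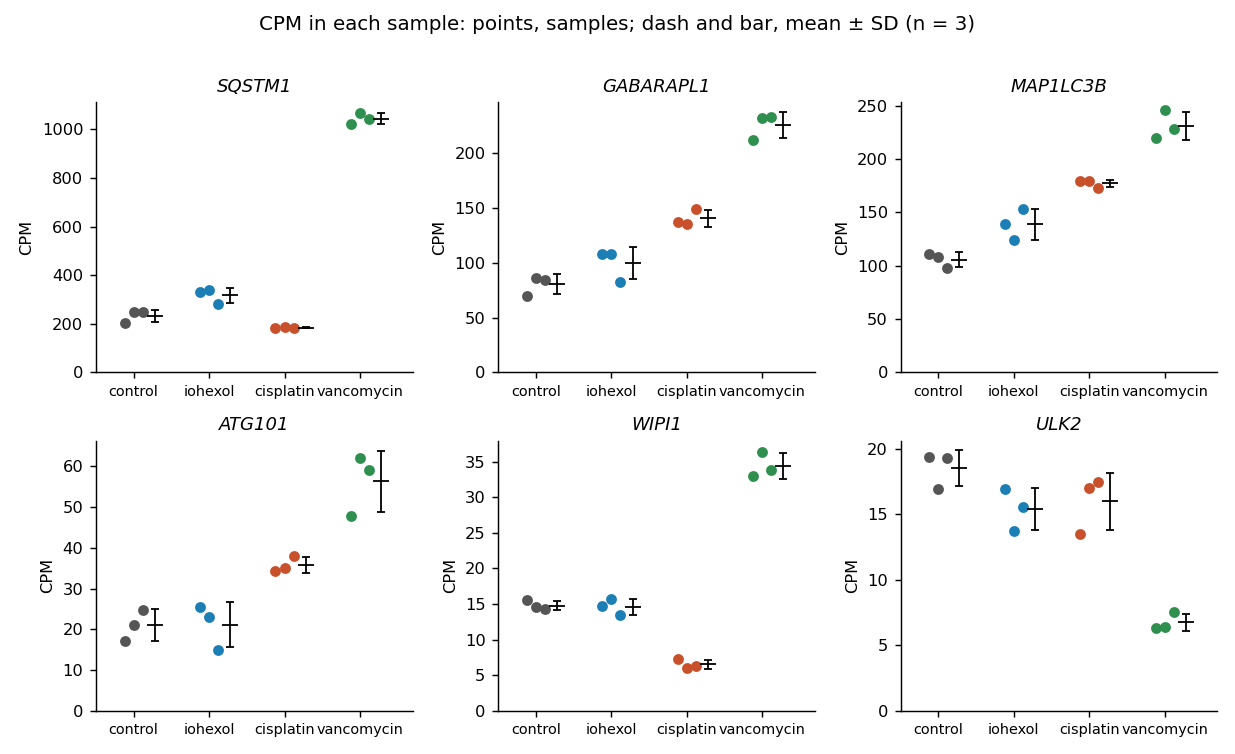
CPM in each sample (points) with the mean ± SD of each group (n = 3) for 6 members past 2-fold with vancomycin, with a y axis for each gene that starts at 0. SQSTM1, GABARAPL1, MAP1LC3B, ATG101 and WIPI1 have their vancomycin samples above all others and ULK2 has them below; WIPI1 has its cisplatin samples, 6.03 to 7.27 CPM, below all others.

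In the PI3-kinase complex, the catalytic and the anchoring subunits fell. PIK3C3 (VPS34, the lipid kinase) stood at 59.5, 56.6 and 53.7 CPM in controls, at 42.4, 37.9 and 48.9 with iohexol, at 35.6, 30.2 and 31.1 with cisplatin and at 45.9, 46.0 and 45.7 with vancomycin. All treated samples were below all controls. The log2 fold change was -0.81 ± 0.09 with cisplatin (1.75-fold lower, adjusted p = 3.24e-07), -0.35 ± 0.10 with vancomycin (adjusted p = 0.0043) and -0.38 ± 0.11 with iohexol (adjusted p = 0.0308). The iohexol call was lost without any 1 control, iohexol 1 or iohexol 2 (adjusted p 0.0547 to 0.139) and with total count scaling (adjusted p = 0.0684), and without both control 1 and iohexol 3 the value was -0.44 (adjusted p = 0.000144). PIK3R4 (VPS15, the anchoring subunit) stood at 90.9, 81.4 and 80.4 CPM in controls, at 62.5, 66.1 and 78.3 with iohexol, at 65.8, 65.6 and 64.6 with cisplatin and at 63.6, 55.0 and 60.4 with vancomycin. All treated samples were again below all controls, by a log2 fold change of -0.54 ± 0.10 with vancomycin (adjusted p = 5.22e-05), -0.37 ± 0.07 with cisplatin (adjusted p = 0.00027) and -0.27 ± 0.11 with iohexol (adjusted p = 0.0908). The iohexol difference was called in 4 of 15 other settings (adjusted p 0.000788 to 0.264). With total count scaling the PIK3R4 value with cisplatin was -0.15 (adjusted p = 0.071).

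Of the subunits that distinguish the PI3-kinase complexes, UVRAG was called with cisplatin and vancomycin and ATG14 with no drug. UVRAG, which marks the endosomal complex, fell with cisplatin, with a log2 fold change of -0.63 ± 0.12 (adjusted p = 0.000213) and rose with vancomycin by 0.41 ± 0.12 (adjusted p = 0.0063, lost without control 2, adjusted p = 0.0658). The difference between these drugs was 1.08 ± 0.12 (adjusted p = 9.17e-08). ATG14, which marks the autophagy complex, stood at 0.04, 0.14 and 0.18 with iohexol, cisplatin and vancomycin (adjusted p 0.178 to 0.819), and the 2 genes were not tested against each other. BECN1 (beclin 1, the shared scaffold) rose with cisplatin by 0.28 ± 0.09 (adjusted p = 0.0122, lost without cisplatin 2, adjusted p = 0.0955), and 17.1% of its exon bases overlap other genes, among them PSME3, at 0.34 with cisplatin. AMBRA1, a regulator that binds BECN1, fell with cisplatin, at -0.44 ± 0.12 (adjusted p = 0.0038), a call lost with total count scaling (adjusted p = 0.11).

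Of the genes of membrane supply, WIPI1 changed past 2-fold in opposite directions with cisplatin and vancomycin. WIPI1, which binds PI3P on the growing membrane (chr17:68420948-68457513, minus strand), stood at 15.5, 14.6 and 14.3 CPM in controls, at 14.7, 15.7 and 13.4 with iohexol, at 7.27, 6.03 and 6.26 with cisplatin and at 32.9, 36.4 and 33.9 with vancomycin. Iohexol samples overlapped the controls (0.00 ± 0.13, adjusted p = 0.995), cisplatin samples were all lower (-1.18 ± 0.13, 2.27-fold, adjusted p = 5.23e-07) and vancomycin samples all higher (1.18 ± 0.12, 2.26-fold, adjusted p = 5.82e-09). The direct contrast of vancomycin with cisplatin was 2.40 ± 0.12 (5.27-fold, adjusted p = 1.09e-12). Of the WIPI1 exon bases, 28.1% overlap other genes, ARSG on the opposite strand among them. ARSG had 13 to 76 counts where WIPI1 had 98 to 550, with log2 fold changes of -1.34 with cisplatin and 0.92 with vancomycin, and the part of shared reads in either gene was not tested. WIPI2, its relative that recruits ATG16L1, was not called with any drug (-0.04, -0.02 and -0.11 with iohexol, cisplatin and vancomycin), and its cisplatin value became 0.20 with total count scaling (adjusted p = 0.00965).

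ATG2A, a lipid transfer protein, stood at 40.2, 49.4 and 52.4 CPM in controls, at 73.2, 77.5 and 70.2 with iohexol, at 80.2, 86.3 and 81.4 with cisplatin and at 62.3, 56.3 and 60.3 with vancomycin. Every treated sample was above every control. The log2 fold change was 0.80 ± 0.09 with cisplatin (adjusted p = 3.85e-07), 0.66 ± 0.11 with iohexol (1.57-fold, adjusted p = 0.00149) and 0.29 ± 0.11 with vancomycin (adjusted p = 0.0236). The vancomycin call was lost without control 1, vancomycin 1 or vancomycin 3 (adjusted p 0.0581 to 0.117). In direct contrasts vancomycin was below cisplatin (-0.47 ± 0.09, adjusted p = 0.000187) and below iohexol (-0.30 ± 0.09, adjusted p = 0.00938). ATG2B, its paralog, and ATG9A, the lipid scramblase of the seed vesicles, had no call, with log2 fold changes from -0.05 to 0.14 over the 3 drugs. For ATG9A, 38.8% of exon bases overlap a gene on the same strand that had at most 9 counts.

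Of the ATG4 proteases, which trim ATG8 proteins before and after conjugation, ATG4A rose with all 3 drugs. It stood at 11.0, 10.8 and 7.89 CPM in controls, at 16.8, 14.3 and 16.7 with iohexol, at 19.0, 16.4 and 17.4 with cisplatin and at 14, 16.1 and 12.3 with vancomycin, so that every treated sample was above every control. The log2 fold change was 0.71 ± 0.16 with iohexol (1.63-fold, adjusted p = 0.00754), 0.83 ± 0.13 with cisplatin (adjusted p = 4.34e-05) and 0.47 ± 0.16 with vancomycin (adjusted p = 0.0124, lost without control 3 or vancomycin 2, adjusted p 0.0684 to 0.0981). ATG4C was lower with cisplatin (-0.54 ± 0.15, adjusted p = 0.00446, lost with total count scaling, adjusted p = 0.0642) and vancomycin (-0.38 ± 0.16, adjusted p = 0.0436), and the latter call was lost without any 1 library except control 3 (adjusted p 0.0778 to 0.21). Over all 14 alternative settings, the ATG4C call with vancomycin was lost in 10, so it depended on the method as well. ATG4D was higher with cisplatin, from 16.1 to 19.4 CPM in controls to 29.2 to 33.2 (0.79 ± 0.10, adjusted p = 4.65e-06), and 15% of its exon bases overlap other genes, with KRI1 at 0.87 in the same comparison. ATG4B was not called with any drug.

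The conjugation genes divided under cisplatin, where ATG10 and ATG7 fell and ATG3 and ATG12 rose. ATG10, the enzyme that joins ATG12 to ATG5 (chr5:81972025-82276857, plus strand), stood at 8.05, 7.02 and 8.29 CPM in controls, at 6.29, 7.42 and 7.75 with iohexol, at 2.00, 2.89 and 1.60 with cisplatin and at 6.69, 6.48 and 6.22 with vancomycin. Every cisplatin sample was below all others, with a log2 fold change of -1.85 ± 0.21 (3.60-fold lower, adjusted p = 7.89e-07), on 27 to 47 counts per cisplatin sample. With vancomycin it was -0.31 ± 0.17 (adjusted p = 0.123) and with iohexol -0.10 ± 0.16 (adjusted p = 0.695), and cisplatin was 2.99-fold below vancomycin (adjusted p = 9.75e-07) and 3.31-fold below iohexol (adjusted p = 4.62e-07). Of its exon bases, 6.86% overlap RPS23 on the opposite strand, which had 167 to 245 counts in controls and 5478 to 5914 with vancomycin.

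ATG7, the activating enzyme of both conjugation reactions, stood at 25.0, 24.1 and 26.6 CPM in controls, at 21.7, 22.8 and 19.6 with iohexol, at 14.5, 12.1 and 12.2 with cisplatin and at 25.5, 26.5 and 24.3 with vancomycin. Cisplatin samples were all below the rest (-0.96 ± 0.11, 1.95-fold lower, adjusted p = 8e-07), iohexol samples were below the controls without a call (-0.22 ± 0.12, adjusted p = 0.208) and vancomycin samples overlapped the controls (-0.03 ± 0.11, adjusted p = 0.825). Of ATG7 exon bases, 18.1% overlap VGLL4, which was at -0.26 with cisplatin. ATG5, the partner of ATG12, also fell with cisplatin (-0.52 ± 0.10, adjusted p = 0.000181). In the other direction, ATG12, the ubiquitin-like protein of the pair, rose with cisplatin (0.67 ± 0.09, adjusted p = 4.94e-06) and vancomycin (0.31 ± 0.11, adjusted p = 0.0209). The ATG12 call with vancomycin was lost without control 2, control 3, vancomycin 1 or vancomycin 2 (adjusted p 0.0567 to 0.106). ATG3, which hands ATG8 proteins to the lipid, rose with cisplatin (0.55 ± 0.07, adjusted p = 3.57e-06). ATG16L1, which sets the site of conjugation, was lower with vancomycin (-0.25 ± 0.09, adjusted p = 0.025), a call lost without the same 4 libraries in turn (adjusted p 0.0505 to 0.092).

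STX17, the SNARE of the completed autophagosome (chr9:99906633-99970341, plus strand), stood at 25.1, 21.5 and 21.8 CPM in controls, at 20.2, 21.6 and 23.1 with iohexol, at 14.8, 16.0 and 13.0 with cisplatin and at 17.3, 14.3 and 14.6 with vancomycin. Cisplatin and vancomycin samples were all below the controls, by log2 fold changes of -0.64 ± 0.11 (adjusted p = 0.000112) and -0.61 ± 0.13 (adjusted p = 0.000293), and iohexol samples overlapped them (-0.06 ± 0.12, adjusted p = 0.766). The 2 drugs that lowered it differed by 0.08 ± 0.12 (adjusted p = 0.595). The plot of members changed with cisplatin or in all comparisons shows STX17 with ATG10, ATG7, PIK3C3, ATG4A and ATG2A.

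**Figure D5:**
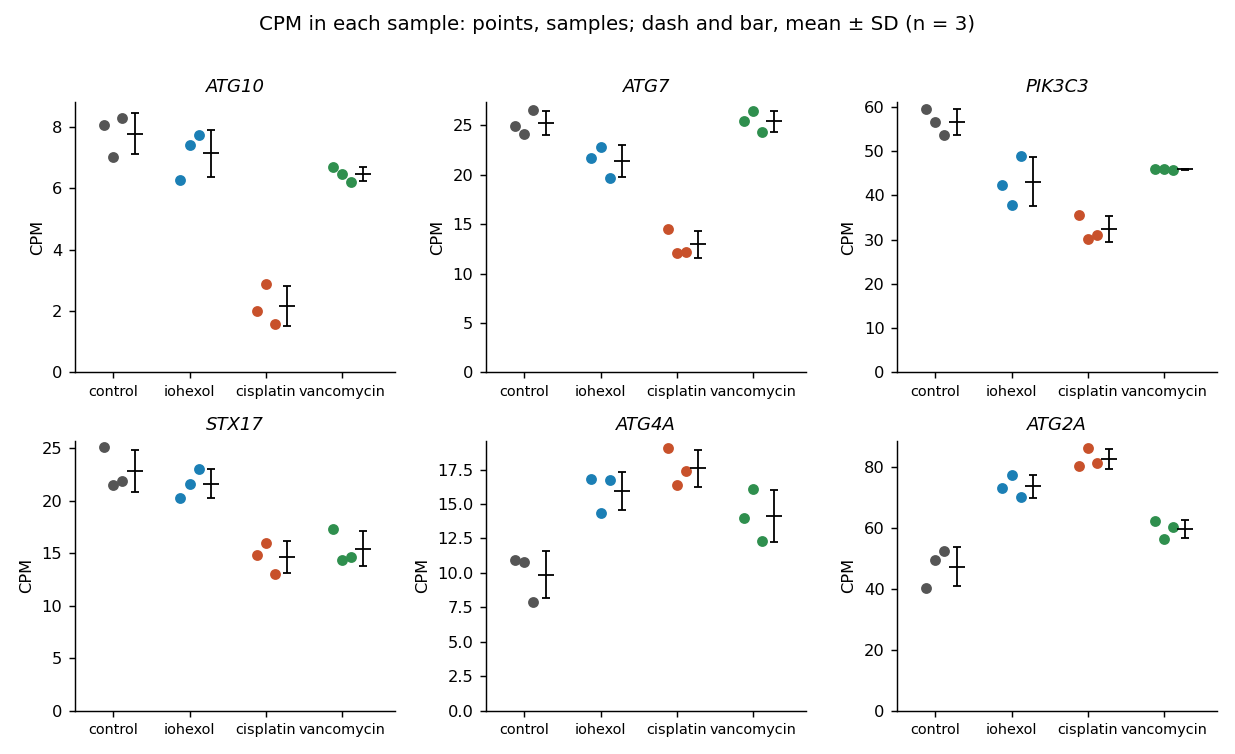
CPM in each sample (points) with the mean ± SD of each group (n = 3) for ATG10, ATG7, PIK3C3, STX17, ATG4A and ATG2A, with a y axis for each gene that starts at 0. ATG10 (1.60 to 2.89 CPM) and ATG7 (12.1 to 14.5 CPM) are lowest with cisplatin, PIK3C3 is below the controls in every treated sample, and ATG4A and ATG2A are above them in every treated sample.

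Tested directly between drugs in a fit of all 12 samples, 26 of 37 members differed between cisplatin and iohexol (54% of all genes), 18 between vancomycin and iohexol (56.6% of all genes) and 24 between vancomycin and cisplatin (64.7% of all genes). Besides SQSTM1, WIPI1, ATG10 and UVRAG, the contrast of vancomycin with cisplatin held OPTN (0.80 ± 0.07, adjusted p = 9.99e-09), ATG7 (0.97 ± 0.11, adjusted p = 2.15e-07) and AMBRA1 (0.72 ± 0.12, adjusted p = 4.41e-05), all higher with vancomycin. NBR1 (-0.71 ± 0.07, adjusted p = 6.66e-08), ATG4D (-0.74 ± 0.13, adjusted p = 3.67e-05) and MAP1LC3B2 (-0.65 ± 0.14, adjusted p = 0.000401) were lower with vancomycin. Members that did not pass the test in this contrast included ULK1 (0.00 ± 0.11, adjusted p = 0.979) and CALCOCO2 (0.02 ± 0.09, adjusted p = 0.883).

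The wider pathway was described with 80 further genes in 6 lists. These lists were chosen with earlier results of these data known, so their shares beside all genes describe them and test nothing about them. Their genes were fitted with all libraries only, and not without control 1 or iohexol 3. With iohexol 17 of the 78 tested were higher and 4 lower (21.8% and 5.13%, against 11.2% and 9.77% of all genes). With cisplatin 20 of 77 were higher, 26% and near the 29.2% of all genes, and 32 were lower, 41.6% against 30.6%. With vancomycin 38 of 79 were higher and 16 lower (48.1% and 20.3%, against 29% and 28.8% of all genes). The shares of the single lists below are read against these same shares of all genes. Their median log2 fold change was 0.16, -0.14 and 0.26 in that order. Of the 21 genes of mTORC1 (the nutrient-sensing kinase complex that restrains autophagy) and its regulators, 12 were higher and 3 lower with vancomycin (57.1% and 14.3%, beside 29% and 28.8% of all genes). Of the 20 tested with the other drugs, 3 were higher and 11 lower with cisplatin (15% and 55%, beside 29.2% and 30.6%) and 6 were higher and 0 lower with iohexol (30% and 0%, beside 11.2% and 9.77%). The list pools the complex with its regulators, inhibitors among them, so its counts give no direction for mTORC1. With vancomycin MTOR (-0.53 ± 0.09, adjusted p = 3.15e-05) and RPTOR (-0.38 ± 0.11, adjusted p = 0.00431) were lower. MLST8 (0.44 ± 0.11, adjusted p = 0.00192) and AKT1S1 (0.47 ± 0.09, adjusted p = 0.00016) were higher. DEPTOR, an mTOR-binding inhibitor, rose from 3.95 to 4.20 CPM in controls to 30.4 to 37.5 with iohexol (3.03 ± 0.15, adjusted p = 1.06e-07) and to 10.8 to 14.1 with vancomycin (1.52 ± 0.18, adjusted p = 9.81e-08), and was lower at 1.60 to 2.66 with cisplatin (-0.87 ± 0.23, adjusted p = 0.00401). DDIT4 (REDD1, a stress-induced mTORC1 inhibitor) fell from 179.5 to 217.4 CPM to 48.4 to 53.4 with cisplatin (-1.99 ± 0.08, adjusted p = 6.71e-13). FNIP2, a folliculin partner, rose with iohexol (1.02 ± 0.09, adjusted p = 1.05e-05) and vancomycin (1.51 ± 0.09, adjusted p = 2.45e-12) and fell with cisplatin (-0.34 ± 0.07, adjusted p = 0.000479). With vancomycin TBC1D7, a subunit of the TSC complex, rose (1.32 ± 0.10, adjusted p = 9.28e-11) and SESN3, a sestrin, fell (-2.31 ± 0.44, adjusted p = 8.15e-05). TBC1D7 was also higher with iohexol (0.71 ± 0.11, adjusted p = 0.000641) and lower with cisplatin (-0.32 ± 0.10, adjusted p = 0.00792), and SESN3 had no call with either.

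A list of 6 transcription factors of autophagy and lysosome genes held TFEB, TFE3 and MITF (the MiT/TFE family), FOXO1, FOXO3 and the zinc finger factor ZKSCAN3. Of them 3 were higher and 1 lower with vancomycin (50% and 16.7%, beside 29% and 28.8% of all genes), 0 were higher and 3 lower with cisplatin (0% and 50%, beside 29.2% and 30.6%), and 0 were higher and 1 lower with iohexol (0% and 16.7%, beside 11.2% and 9.77%). MITF fell from 137.2 to 149.9 CPM in controls to 29.6 to 33.1 with vancomycin (-2.23 ± 0.10, adjusted p = 3.98e-15), and was also lower with cisplatin (-0.53 ± 0.07, adjusted p = 2.42e-06) and iohexol (-0.38 ± 0.09, adjusted p = 0.0114). The 3 factors higher with vancomycin were TFEB (0.59 ± 0.18, adjusted p = 0.00661), TFE3 (0.70 ± 0.09, adjusted p = 4.23e-07) and FOXO3 (0.38 ± 0.09, adjusted p = 0.000783). FOXO1 fell with cisplatin (-1.94 ± 0.47, adjusted p = 0.00192), at 0.177 to 0.431 CPM against 0.941 to 1.64 in controls. The floor of 3 counts was 0.177 to 0.185 CPM in cisplatin samples, so the size of this fall is uncertain. The 6 AMPK subunits and STK11 (LKB1, the kinase that activates them) made a list of 7, none past 2-fold. With vancomycin 1 was higher and 4 lower (14.3% and 57.1%). With cisplatin 2 were higher and 3 lower (28.6% and 42.9%), the former near the 29.2% of all genes, and with iohexol 1 was higher and 0 lower (14.3%, near the 11.2% of all genes).

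Of the 12 genes of autophagosome-lysosome fusion, 8 were higher and 0 lower with vancomycin (66.7% and 0%, beside 29% and 28.8% of all genes). With cisplatin 5 were higher (41.7%) and 4 lower (33.3%, near the 30.6% of all genes), and with iohexol 4 were higher and 0 lower (33.3% and 0%, beside 11.2% and 9.77%). The vancomycin calls past 2-fold were VAMP8 (1.21 ± 0.13, adjusted p = 3.4e-08) and YKT6 (1.09 ± 0.09, adjusted p = 1.16e-10), both SNAREs, and PLEKHM1 (1.04 ± 0.10, adjusted p = 2.97e-09), a RAB7 effector that was also higher with iohexol (0.72 ± 0.10, adjusted p = 0.000404) and cisplatin (0.68 ± 0.08, adjusted p = 1.1e-06). YKT6 rose with cisplatin as well (0.30 ± 0.06, adjusted p = 0.000294). STX17, a partner SNARE of VAMP8, was lower in that comparison, as given above. Among 17 receptors of mitophagy and ER-phagy, 8 were higher and 5 lower with vancomycin (47.1% and 29.4%, the latter near the 28.8% of all genes), 4 higher and 4 lower of 16 tested with cisplatin (25% each, below the 29.2% and 30.6% of all genes) and 3 higher and 2 lower with iohexol (17.6% and 11.8%, beside 11.2% and 9.77%). CALCOCO1, an ER-phagy receptor, rose with vancomycin (1.10 ± 0.12, adjusted p = 4.4e-08), iohexol (0.58 ± 0.14, adjusted p = 0.0109) and cisplatin (0.47 ± 0.10, adjusted p = 0.000565). PINK1, the kinase that flags damaged mitochondria, rose from 31.6 to 42.9 CPM in controls to 64.4 to 107.6 with iohexol (1.31 ± 0.18, adjusted p = 0.00038), 74.6 to 81.4 with cisplatin (1.02 ± 0.09, adjusted p = 4.67e-08) and 67.5 to 76.3 with vancomycin (0.90 ± 0.11, adjusted p = 2.35e-07). BNIP3, a mitophagy receptor, fell from 307.6 to 320.9 CPM to 132.3 to 139.2 with cisplatin (-1.23 ± 0.06, adjusted p = 8.55e-12). It was lower with iohexol (-0.30 ± 0.08, adjusted p = 0.0171) and higher with vancomycin (0.47 ± 0.08, adjusted p = 3.66e-05). In the list of other core autophagy genes, 6 of 16 tested were higher and 3 lower with vancomycin (37.5% and 18.8%, beside 29% and 28.8% of all genes), 6 higher and 7 lower with cisplatin (37.5% and 43.8%, beside 29.2% and 30.6%), and 3 higher and 1 lower with iohexol (18.8% and 6.25%, beside 11.2% and 9.77%). WDR45 (WIPI4) rose with vancomycin (1.10 ± 0.10, adjusted p = 1.47e-09), iohexol (0.59 ± 0.11, adjusted p = 0.0022) and cisplatin (0.45 ± 0.08, adjusted p = 0.000131). TECPR1 fell with cisplatin (-1.03 ± 0.14, adjusted p = 8.34e-06) and rose with vancomycin (0.54 ± 0.13, adjusted p = 0.00127).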

How the data were processed

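RNA of 12 HK-2 samples (4 groups of 3, assigned from the sample labels) was selected on poly-T beads, made into NEBNext Ultra libraries and sequenced at Novogene. The authors deposited raw counts per gene, whole numbers without normalization. The submitters' processing notes name CASAVA 1.8, fastp, HISAT2 2.0.5, featureCounts 1.5.0-p3 and DESeq2 1.20.0; their settings, the strand setting and the annotation are not given in the sources used here. Positions of all 38 genes equal GENCODE release 29 (GRCh38). From the deposited counts, edgeR 4.0.16 (R 4.3.3; filterByExpr at 10 counts, 15 in total, TMM, glmQLFit, glmQLFTest) compared each drug with the controls, and contrasts in a fit of all 12 samples compared drugs. The study's threshold of 2-fold was used beside an adjusted p under 0.05. The steps were tested on simulated counts for the control and cisplatin groups only. These had a single fixed spread, few changed genes and no sample standing apart, unlike the data.

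A floor of 3 counts covers counting error only. CPM used TMM-scaled totals, and levels per kb the exon length in the table. The members and lists were chosen with earlier results of these data known. Values in every sample were given for SQSTM1, the ATG8 genes, members past 2-fold with any drug, and the 3 highest and 3 lowest log2 fold changes called with each drug. Of the other lists, genes past 2-fold were named, and below it TFEB, TFE3, FOXO3, MTOR, RPTOR, MLST8 and AKT1S1. Exon overlap and shared 31-base sequences were computed from GENCODE, and motifs from RefSeq promoters. The alternatives were DESeq2 1.42.0, limma-voom (limma 3.58.1), RLE factors, library size only, no filter, 10 counts in every sample, other samples in the fit, replicate number as a block and each sample left out; leaving out control 1 and iohexol 3 together was chosen after seeing the data. Figures were drawn with matplotlib 3.10.9.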

Additional observations from a re-analysis of the deposited data

How the results depend on the processing

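The number of members called past 2-fold with vancomycin stayed at 7 whichever sample was left out, and was 6 when 10 counts were required in every sample, a filter that GABARAP did not pass. The share of all genes past 2-fold was computed in the main fit only (5.28% with iohexol, 16.3% with cisplatin and 18.5% with vancomycin). The iohexol counts were the least stable. With library size only in place of TMM, 8 members were higher and 0 lower with iohexol, and 7 were lower and 6 past 2-fold with cisplatin. The shares of all genes were then 14.3% higher and 6.89% lower with iohexol and 20.4% lower with cisplatin. In the cisplatin comparison this scaling moved the median of all genes to 0.23 and the share of calls that were higher from 48.9% to 68.1%, and with iohexol it moved that share from 53.4% to 67.5%. It turned the cisplatin log2 fold change of RB1CC1 to 0.21, of WIPI2 to 0.20 and of OPTN to 0.057. The number lower with iohexol was 2 without a filter, 2 in the fit of all 4 groups and 0 in the blocked fit described below. Of all genes, 5.97%, 13.4% and 5.84% were lower in the same order. With control 1 and iohexol 3 both left out, a setting chosen after seeing the data, 9 were higher and 2 lower with iohexol. These were 24.3% and 5.41% of the members, beside 16.4% and 18.2% of all genes. The TMM factors that library size only leaves out were 0.961 to 0.976 in controls and 1.12 to 1.13 with cisplatin. Beyond these settings, the cause of the shifts was not tested.

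With each sample left out in turn, iohexol had 3 to 7 members higher, cisplatin 14 to 16 and vancomycin 11 to 13. The shares of all genes higher ranged from 6.34% to 14.8%, 25.1% to 29.2% and 25.9% to 27.5% in that order. Members lower ranged from 0 to 2, 11 to 12 and 4 to 6 in that order, the 4 being without control 2, and members past 2-fold from 0 to 0, 2 to 3 and 7 to 7. Of all genes, 5.07% to 13.5%, 27.1% to 31.3% and 25.1% to 26.5% were lower. Members differing ranged from 21 to 26 between iohexol and cisplatin, 16 to 20 between iohexol and vancomycin and 21 to 25 between cisplatin and vancomycin. Over all genes, 8217 to 9467, 8816 to 9879 and 10299 to 11710 were called in the same order. Of the members called, 3 of 6 with iohexol, 21 of 28 with cisplatin and 13 of 22 with vancomycin were called under every setting. Where a group was left with fewer samples, the fit assumed that it varied like the others.

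The labels give all groups replicate numbers 1 to 3, but same-numbered samples did not deviate together (correlations of their deviations from -0.18 to 0.10 over 9 pairs), so the numbers were taken as names. Entering replicate number as a block ended the iohexol calls of PIK3C3 (adjusted p = 0.0871) and OPTN (adjusted p = 0.0855) and no other member's call against control. It left 4 members higher and 0 lower with iohexol, 16 and 12 with cisplatin and 15 and 7 with vancomycin, and 25, 18 and 22 members differing in the 3 contrasts between drugs. In those contrasts 8871, 9296 and 10808 of all 17073 genes tested were called. With the block, 7.54% of all genes were higher and 5.84% lower with iohexol, 30.1% and 31.4% with cisplatin and 30.7% and 30.5% with vancomycin.

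At 14057282 to 18177109 counts per sample, MAP1LC3A could not be tested and GABARAP rested on 4 to 67 counts.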
